A study of Mus musculus with 6 samples.

Results

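The 10 genes described here encode the proteins that license replication origins: Mcm2, Mcm3, Mcm4, Mcm5, Mcm6 and Mcm7, the loading factors Cdc6 and Cdt1, the Cdt1 inhibitor geminin (Gmnn) and the replication factor Mcm10. They were taken by gene symbol from a table of 51912 mouse genes, and all 10 had 1 row each and passed the filter on low counts. R1 mouse embryonic stem cells, an established line, had been kept in the naive state in 2iLIF (inhibitors of MEK and GSK3 with the cytokine LIF). Both groups were then given FGF2 at 100 ng/ml in the serum-free medium N2B27, 1 group for 24 h and the other for 48 h, with 3 sequenced mRNA libraries each. The question is how the licensing transcripts differ between the first and the second day, and no library without FGF2 was analysed here. Nothing in the labels tells if the 3 replicates came from different cultures, so the p-values measure only the spread between these libraries, which may be technical.

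Before S phase, the origin recognition complex binds DNA and, with Cdc6 and Cdt1, loads Mcm2 to Mcm7 as a ring-shaped helicase that is inactive until S phase. Geminin binds Cdt1 and keeps origins from being loaded again within the same cycle, and Mcm10 acts when the loaded helicase is switched on. Mouse embryonic stem cells spend little of their cycle in G1, when loading takes place, and are known for high levels of licensing proteins. Genes of this kind are classic targets of E2F factors, and promoters of genes that oscillate with the cycle often also carry a CCAAT box, bound by NF-Y, or a CHR element, read by the DREAM complex.

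Start-site sequences were looked up in RefSeq (GRCm38.p6), which gave 9 windows for 8 of the 10 genes, all but Mcm4 and Gmnn. Each window runs from 250 bases before to 50 bases after the start. At least 1 E2F word (TTTCCCGC, TTTCGCGC, TTTGCCGC or TTTGGCGC, on either strand) was in 6 of the 9 windows, from 6 of the 8 genes, against 2.26% of all 32851 windows of this length. The word CCAAT, on either strand, was in 7 of the 9 windows, against 37.4% of all windows, and TTTGAA, the CHR word, was in 1, that of Mcm2, against 17.9%. The 4 stretches below hold the last 170 bases before the start of 2 genes without an E2F word, Mcm10 and Mcm2, and of 2 genes with such words, Mcm5 and Mcm6. They were chosen after the values were seen, because Mcm10 and Mcm2 had the largest fitted rises of the 10 genes and Mcm5 had next to none. Mcm7 and Cdc6, not shown, had the next largest fitted rises and did have E2F words. The 4 stretches therefore do not tell how words and changes go together, which was not tested. Capitals mark E2F and CCAAT words on either strand, read 5′ to 3′ in the direction of the gene.
Mcm10: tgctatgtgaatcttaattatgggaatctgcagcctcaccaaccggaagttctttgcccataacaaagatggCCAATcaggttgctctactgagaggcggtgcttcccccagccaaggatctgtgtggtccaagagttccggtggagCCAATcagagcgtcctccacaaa
Mcm2: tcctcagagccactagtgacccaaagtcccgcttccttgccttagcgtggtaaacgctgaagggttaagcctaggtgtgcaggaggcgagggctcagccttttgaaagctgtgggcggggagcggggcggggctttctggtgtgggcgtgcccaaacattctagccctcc
Mcm5: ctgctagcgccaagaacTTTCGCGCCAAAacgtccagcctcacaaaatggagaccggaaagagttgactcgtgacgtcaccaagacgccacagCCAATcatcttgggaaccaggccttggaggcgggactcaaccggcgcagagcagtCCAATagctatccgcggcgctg
Mcm6: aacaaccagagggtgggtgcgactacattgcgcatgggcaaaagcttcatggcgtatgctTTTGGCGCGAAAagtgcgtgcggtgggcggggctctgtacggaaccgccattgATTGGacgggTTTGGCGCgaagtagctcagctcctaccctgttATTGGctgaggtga
The stretches lie at chr2:5012792-5012961 (minus strand) for Mcm10, chr6:88898781-88898950 (minus strand) for Mcm2, chr8:75109339-75109508 (plus strand) for Mcm5 and chr1:128359706-128359875 (minus strand) for Mcm6. None of them overlaps an exon of the GENCODE M21 annotation. In Mcm5 and in Mcm6, a pair of E2F words on opposite strands overlap each other, at 153 to 142 and at 110 to 99 bases before the start, and Mcm6 has another at 47 to 40 bases before it. Mcm2 has a CCAAT word only further upstream than the stretch shown. A word is a match of letters and was not tested as a binding site.

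**Figure D1:**
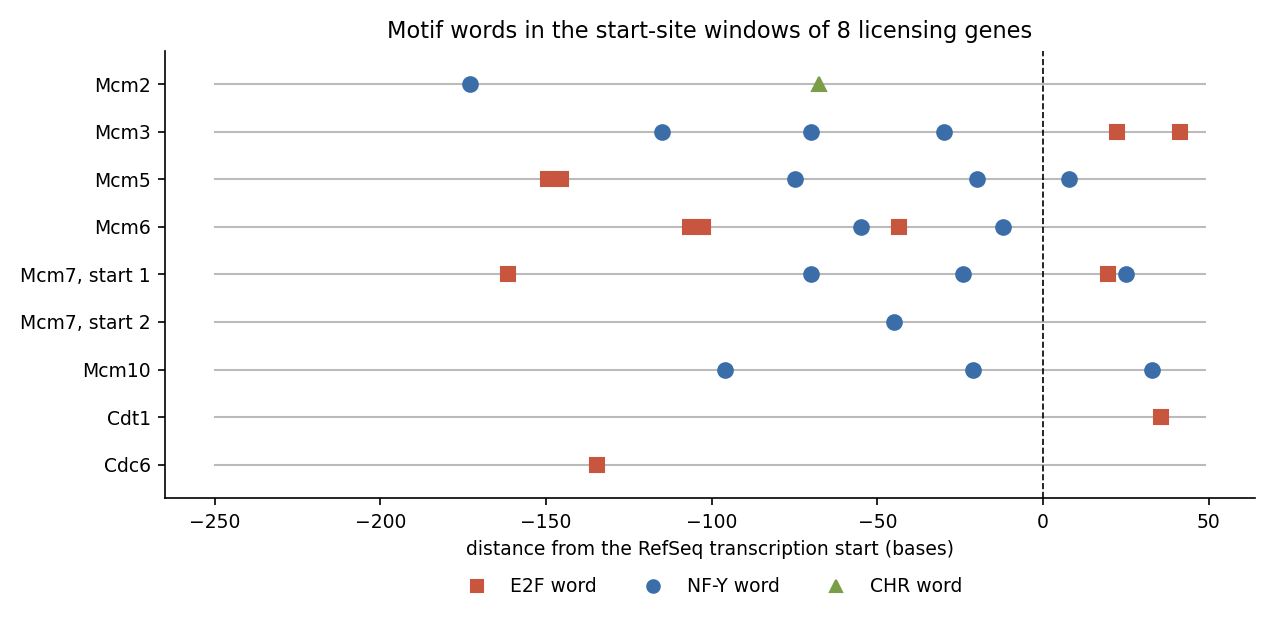
Positions of E2F, NF-Y (CCAAT) and CHR words in the 9 RefSeq start-site windows of 8 licensing genes, with the distance from the transcription start in bases on the x axis. Windows of Mcm2, Mcm10 and the second start of Mcm7 hold no E2F word, and 6 genes hold at least 1.

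The libraries held 19574969 to 23133148 estimated counts, and each licensing gene had between 1204 and 18547 counts in a library. Summed levels of the pluripotency markers Pou5f1, Sox2, Nanog, Zfp42 and Esrrb were 3770 to 3869 CPM (a gene's count as a share of its library's TMM-adjusted total) at 24 h and 2186 to 2276 CPM at 48 h. The 5 genes shared this fall unevenly. On average Pou5f1 went from 1111 to 1058 CPM and Sox2 from 403 to 312 CPM. Nanog went from 695 to 174, Zfp42 from 1034 to 495 and Esrrb from 569 to 205 CPM. Markers of other cells were low: at 24 h and 48 h they summed to 9.01 to 10.6 and 5.53 to 6.18 CPM for 5 primitive endoderm genes, 15.4 to 17.7 and 12.7 to 14.4 CPM for 4 trophoblast genes, and 4.05 to 6.02 and 2.07 to 3.02 CPM for 6 fibroblast genes. Of these, 3, 3 and 3 genes stayed under 1 CPM in every library, and the fibroblast gene Postn had 0 counts in all 6, where 3 counts would give 0.127 to 0.15 CPM. The trophoblast sum was nearly all Eomes, at 16.1 CPM on average at 24 h and 13.2 CPM at 48 h. Most of the primitive endoderm sum came from Gata4, which went from 5.84 to 2.25 CPM, and Dab2, which went from 2.83 to 2.52 CPM. The 6 neural markers summed to 108 to 119 CPM at 24 h and 137 to 145 CPM at 48 h. That sum joins opposite changes: of the 5 tested in the fit given below, 4 rose and 1 fell. On average Sox1 went from 14.7 to 36.6 CPM and Pax6 from 11.6 to 33.9 CPM. Tubb3, the most abundant, went from 78.2 to 54.3 CPM. Mitochondrial genes took 3.08% to 3.19% of counts at 24 h and 2.76% to 2.94% at 48 h. The part of these shifts in the results below was not tested.

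Between 24 h and 48 h, 7 of the 10 licensing genes rose and none fell at an adjusted p under 0.05 (edgeR's quasi-likelihood test, Benjamini-Hochberg adjustment over all genes). Mcm10, Mcm2, Mcm7, Cdc6, Cdt1, Mcm6 and Mcm4 rose, by 33.3% for Mcm10 and by 5.95% to 15.7% for the other 6. Mcm3, Mcm5 and Gmnn had fold changes close to 1 and did not pass. Over all 14889 tested genes 62.8% changed, 30.9% upward and 31.9% downward, and 79.3% changed among the 3553 genes with a mean CPM in the range of the licensing genes. Counted in either direction, 7 of 10 is therefore near the background. The median log2 change (log2 of the level at 48 h over that at 24 h) was 0.12, against -0.01 for all tested genes. Changed genes in the CPM range of the licensing genes had a median size of log2 change of 0.22, and all changed genes one of 0.39. Mcm10, at 0.41, lay above both, and the other 6 risen genes lay below both. Of all tested genes, passing or not, 34.2% had a larger fitted log2 change than Mcm10 in either direction.

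Which of the smaller changes pass the test depends on how libraries are scaled. CPM values here use TMM scaling, which assumes that most genes do not change. With the library total as the only scaling, all log2 changes drop by about the same amount, and the median of all tested genes moves from -0.01 to -0.07. The split of the licensing genes was then 5 higher and 2 lower in place of 7 and 0. Mcm4 (0.02, adjusted p = 0.283) and Mcm6 (0.04, adjusted p = 0.0549) no longer passed. Mcm3 and Mcm5 now passed as lower, both with a log2 change of -0.07 (adjusted p = 0.00309 and 0.00158). Of the licensing genes only Gmnn changed sign between the 2 scalings, from 0.02 to -0.04, and it passed with neither. Mcm2, Mcm7, Mcm10, Cdt1 and Cdc6 rose in each of 15 alternative fits. These are bulk samples, in which more transcript per cell and more cells in the phase that makes it cannot be told apart.

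**Figure D2:**
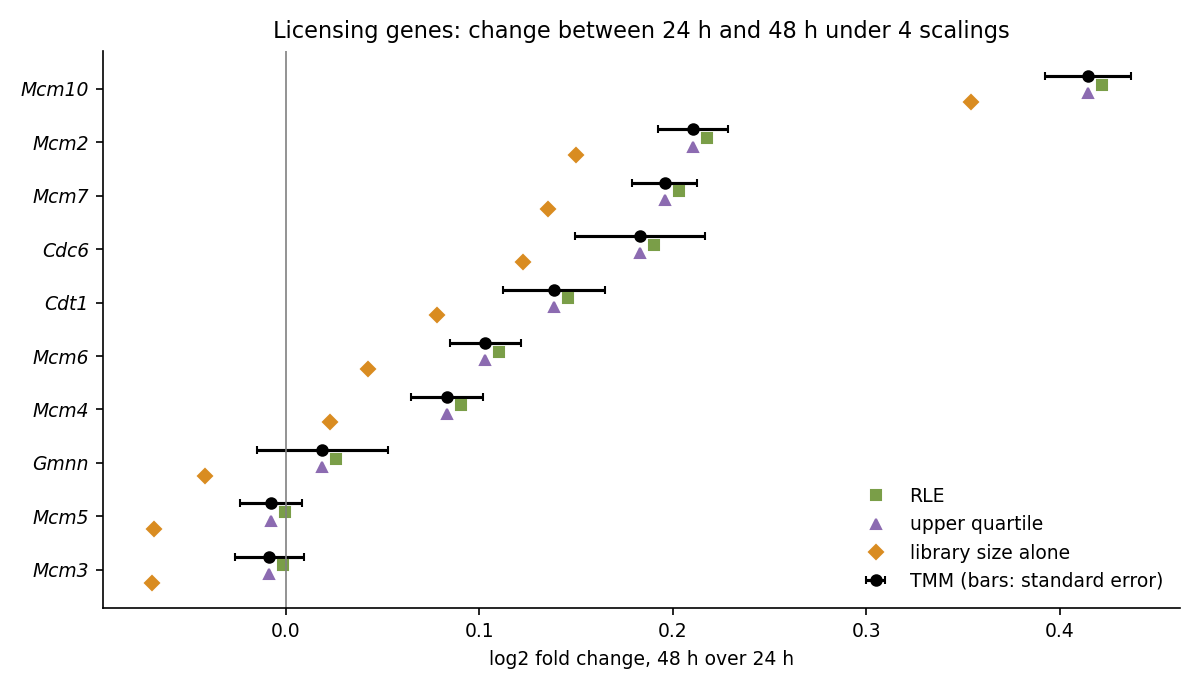
Log2 change of each licensing gene, 48 h over 24 h, on the x axis under TMM, RLE, upper quartile and library size scaling, with the standard error of the TMM fit as bars. TMM, RLE and upper quartile lie close together, and library size alone moves every gene to the left, Mcm10 from 0.41 to 0.35 and Gmnn from 0.02 to -0.04.

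Among the subunits of the helicase ring, Mcm2 (ENSMUSG00000002870, chr6:88883474-88898780) had 702.5, 721.9 and 729.7 CPM in the 24 h libraries and 840.5, 815.5 and 836.6 CPM in the 48 h libraries. Every 48 h library lay above every 24 h library. The means were 718 ± 14 and 831 ± 13.4 CPM (SD, n = 3), a log2 change of 0.21 ± 0.02 (standard error; adjusted p = 3.13e-08). Mcm7 (ENSMUSG00000029730, chr5:138164583-138172422) had 498.8, 507.2 and 499 CPM at 24 h and 573.9, 570.2 and 579.7 CPM at 48 h. Its log2 change was 0.20 ± 0.02 (adjusted p = 2.72e-08), with no overlap between the groups. Mcm7 is the host gene of the microRNAs Mir25 and Mir93, and 321 and 64 bases of its exons lie opposite exons of Ap4m1 and Cops6. Whether strand was used in the counting is not given in the sources used here, so reads of those 2 genes could be included.

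Mcm6 (ENSMUSG00000026355, chr1:128331590-128359664) had 430, 434.9 and 422.8 CPM at 24 h and 463.9, 465 and 454 CPM at 48 h, a log2 change of 0.10 ± 0.02 (adjusted p = 0.000125). Mcm4 (ENSMUSG00000022673, chr16:15623897-15637400) had 375.4, 384.1 and 377.3 CPM at 24 h and 399.1, 397.8 and 407.6 CPM at 48 h, a log2 change of 0.08 ± 0.02 (adjusted p = 0.000949). In both genes the groups were separate but close, and the calls of both depend on the scaling, as given above.

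Mcm5 (ENSMUSG00000005410, chr8:75109569-75128439) had 692, 703.5 and 698.3 CPM at 24 h and 696.3, 700.5 and 686.1 CPM at 48 h. Mcm3 (ENSMUSG00000041859, chr1:20802968-20820312) had 460, 444.8 and 453.7 CPM at 24 h and 451.7, 448.6 and 450.4 CPM at 48 h. The groups overlapped in both genes, and the log2 changes were -0.01 ± 0.02 for each (adjusted p = 0.705 for both). Of the 10 genes, 7 had groups without overlap, the same 7 that passed the test, while 66.9% of all tested genes had none.

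**Figure D3:**
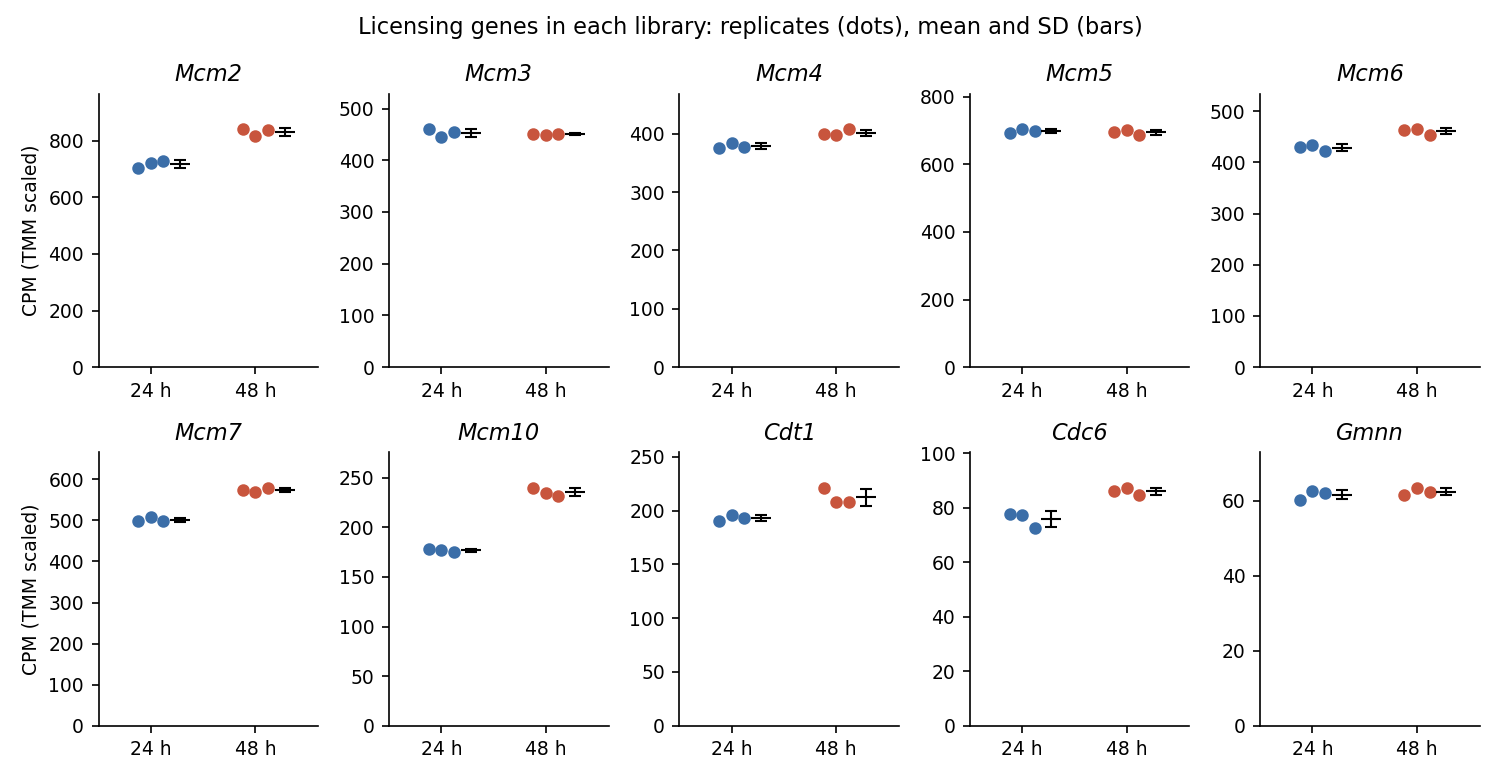
Level of each licensing gene in CPM (y axes from 0, one scale per gene) in the 3 libraries at 24 h (blue) and the 3 at 48 h (red), with means and SD as black bars. The 48 h libraries sit above all 24 h libraries for Mcm10, Mcm2, Mcm7, Cdc6, Cdt1, Mcm6 and Mcm4, and the groups overlap for Mcm3, Mcm5 and Gmnn.

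The 6 subunits sit in the ring in equal number, so their balance was compared within each library, where no scaling between libraries enters. The log2 ratio of Mcm2 to the mean of all 6 was 0.46, 0.48 and 0.51 at 24 h and 0.61, 0.57 and 0.60 at 48 h. For Mcm7 it was -0.04, -0.03 and -0.04 at 24 h and 0.06, 0.06 and 0.08 at 48 h. Mcm2 and Mcm7 thus held a larger part of the subunit transcripts in every 48 h library than in any 24 h library. The opposite held for Mcm3, with -0.15, -0.22 and -0.18 at 24 h and -0.29 in each 48 h library, and for Mcm5, with 0.43, 0.44 and 0.44 at 24 h and 0.34, 0.35 and 0.32 at 48 h. Mcm4 and Mcm6 overlapped between the times on this scale. The mean is that of the log2 counts of all 6 genes, so each gene is part of its own reference. A higher ratio for some subunits therefore comes with a lower ratio for others, and the lower ratios of Mcm3 and Mcm5 are not a separate change. Their own log2 changes were -0.01 each with TMM and -0.07 each with library size scaling. In counts, the share of Mcm2 among the 6 was 22.6% ± 0.35 at 24 h and 24.3% ± 0.3 at 48 h, and that of Mcm5 was 22% ± 0.052 and 20.3% ± 0.26 (SD, n = 3). These ratios were not tested, and how many other genes would separate between the times on this scale was not counted.

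Mcm10 (ENSMUSG00000026669, chr2:4989714-5012791), which acts at helicase activation rather than loading, had 178.3, 177.5 and 174.8 CPM at 24 h and 240.1, 235 and 232.1 CPM at 48 h. The means were 177 ± 1.84 and 236 ± 4.05 CPM (SD, n = 3), so the gap between the times was many times the spread within them. The log2 change was 0.41 ± 0.02 (standard error; adjusted p = 6.76e-11), and it was 0.35 to 0.43 over the 15 alternatives. Set against the mean of the 6 ring subunits in the same library, Mcm10 had log2 ratios of -1.52, -1.54 and -1.56 at 24 h and -1.20, -1.22 and -1.25 at 48 h. The difference of 0.32 lies within libraries and so does not depend on the scaling.

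The loading factor Cdt1 (ENSMUSG00000006585, chr8:122568015-122573554) had 189.9, 195.6 and 193.2 CPM at 24 h and 221.3, 207.9 and 207.9 CPM at 48 h. All 48 h libraries lay above the 24 h libraries, with replicate 1 of 48 h higher than the other two. The log2 change was 0.14 ± 0.03 (adjusted p = 0.000229), and 0.11 (adjusted p = 0.00115) without that replicate. Cdc6 (ENSMUSG00000017499, chr11:98907801-98923940), an ATPase that works with Cdt1 in loading, had 77.8, 77.3 and 72.6 CPM at 24 h and 86, 87.3 and 84.8 CPM at 48 h. The groups did not overlap, and its log2 change was 0.18 ± 0.03 (adjusted p = 0.000168). Against the mean of the ring subunits within a library, the mean log2 ratios of Cdt1 were -1.42 ± 0.014 at 24 h and -1.37 ± 0.048 at 48 h, and the groups overlapped. For Cdc6 the log2 ratios were -2.72, -2.74 and -2.82 at 24 h and -2.68, -2.65 and -2.70 at 48 h. These groups did not overlap, but the gap between -2.72 and -2.70 was small.

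Gmnn (ENSMUSG00000006715, chr13:24751845-24761923), the inhibitor, had 60.3, 62.5 and 62.1 CPM at 24 h and 61.6, 63.5 and 62.3 CPM at 48 h. The groups overlapped in part, and the log2 change was 0.02 ± 0.03 (adjusted p = 0.65). Its balance with Cdt1 differed between the times: there were 0.317, 0.32 and 0.322 Gmnn counts per Cdt1 count at 24 h and 0.279, 0.306 and 0.3 at 48 h. Each 48 h library was below each 24 h library, with means of 0.32 ± 0.0021 and 0.295 ± 0.014 (SD, n = 3). As Gmnn itself had next to no change and Cdt1 had a log2 change of 0.14, the lower ratio is not a separate change of Gmnn. This ratio of counts was not tested, and how many other pairs of genes would separate between the times was not counted. It is not a ratio of molecules, and says nothing of the proteins, both of which are destroyed at set points of the cell cycle.

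**Figure D4:**
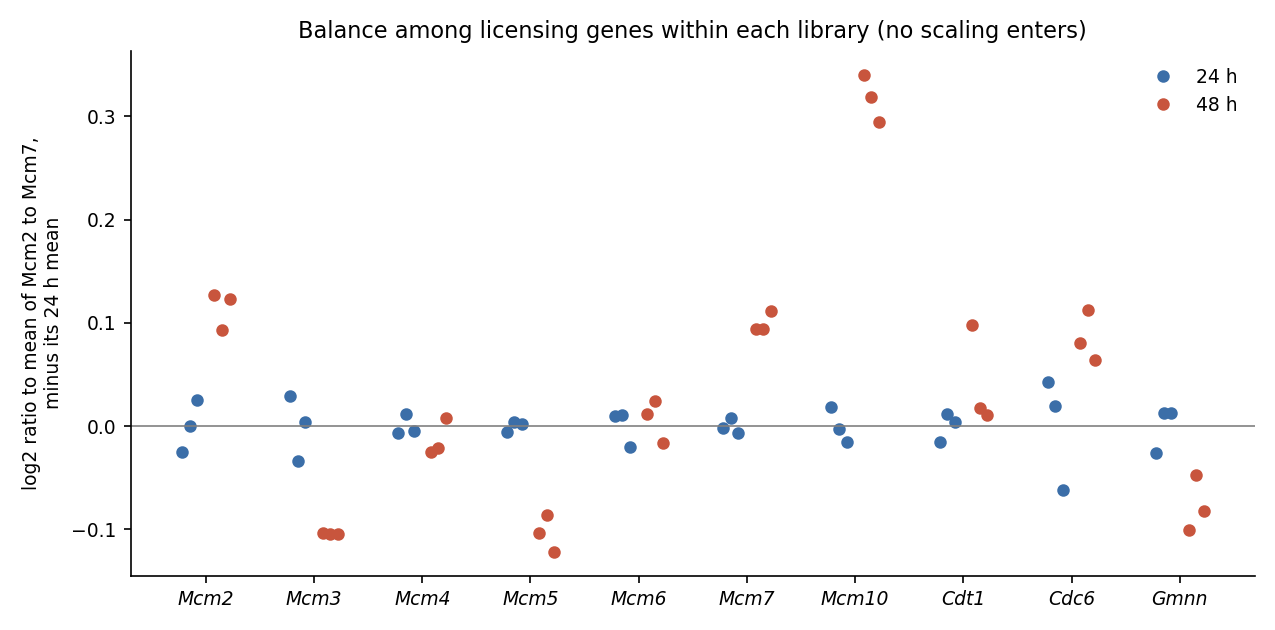
Log2 ratio of each licensing gene to the mean of Mcm2 to Mcm7 in the same library, minus the mean of that ratio at 24 h (y axis), for the 3 libraries at 24 h (blue) and at 48 h (red). Mcm10, Mcm2, Mcm7 and, by a small gap, Cdc6 lie above all 24 h libraries at 48 h. Mcm3, Mcm5 and Gmnn lie below them, and Mcm4, Mcm6 and Cdt1 overlap.

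Levels can be compared between genes only per length, here CPM per kilobase of merged GENCODE M21 exons. At 24 h the ring subunits lay between 92 ± 1.3 for Mcm6 and 174.8 ± 1.45 for Mcm5 (SD, n = 3). Below them came Cdt1 at 61.4 ± 0.91, Gmnn at 42.1 ± 0.83, Mcm10 at 23 ± 0.24 and Cdc6 at 14.5 ± 0.55. At 48 h these 4 stood at 67.6 ± 2.45, 42.7 ± 0.66, 30.6 ± 0.53 and 16.5 ± 0.24, in the same order. That order, below all 6 subunits, was also found with the length of the longest coding transcript. The order within the ring was not: Mcm2 came in place 5 at 24 h by merged exons (103.2 ± 2.01, not apart from Mcm4 at 105.6 ± 1.27 beyond their spread) and in place 1 by the longest coding transcript (213 ± 4.15, against 206.4 ± 1.71 for Mcm5).

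How the members varied between replicates was read from their deviations, and no correlation among them was computed. Within a time point no licensing gene deviated from its group mean by more than 0.064 on the log2 scale. In 5 of the libraries 4 to 6 of the 10 genes lay above their group mean, and in replicate 2 of 24 h 9 did, by a median of 0.02. Together the 10 genes took 0.376% ± 0.0022 of all counts at 24 h and 0.392% ± 0.003 at 48 h (SD, n = 3).

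The origin recognition complex, on which the ring is loaded, was read from the same fit. Of its 6 genes 4 rose and none fell, with a median log2 change of 0.13, against -0.01 for all tested genes. Counted in either direction, 4 of 6 is near the 62.8% of all tested genes that changed. That background, and 79.3% among genes in the CPM range of the licensing genes, also stands beside the counts of the lists below. Orc2 rose from 168 ± 5.93 to 210 ± 2.4 CPM (SD, n = 3; log2 change 0.32, adjusted p = 1.33e-08). Orc6, Orc4 and Orc3 had log2 changes of 0.15, 0.13 and 0.12 (adjusted p = 0.00113, 0.0068 and 0.00879). Orc1 and Orc5, at 0.06 each, did not pass (adjusted p = 0.117 and 0.14). Scaled by library size alone, 2 of the 6 passed, both upward.

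Of 4 relatives of the MCM family, Mcmbp, which binds MCM subunits outside the ring, rose from 138.6 ± 0.98 to 170.2 ± 1.63 CPM (log2 change 0.30, adjusted p = 1.06e-08). Mcm9, which acts in recombination, fell from 29.1 ± 0.56 to 24.2 ± 0.68 CPM (log2 change -0.26, adjusted p = 0.00021). Mcm8, the partner of Mcm9, and Mcmdc2 did not pass (adjusted p = 0.721 and 0.36).

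Of 14 genes that control licensing, 12 were tested, and 7 rose and 2 fell (median log2 change 0.13). The largest rise was that of Ccne1, which encodes cyclin E1, from 135.8 ± 3.25 to 206.3 ± 8.87 CPM (log2 change 0.60, adjusted p = 3.21e-11). Its kinase partner Cdk2 fell from 114.7 ± 2.29 to 92.9 ± 3.68 CPM (log2 change -0.30, adjusted p = 4e-07). Gmnc and Mcidas, relatives of geminin known from multiciliated cells, were too low to test, at 0.063 and 0.031 CPM on average at 24 h and 0.015 and 0.243 CPM at 48 h.

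Of the 14 genes for switching on the helicase, 6 rose and 4 fell, and the median log2 change was -0.01. Ticrr, needed to start the loaded helicase, fell from 257 ± 6.03 to 157.3 ± 3.46 CPM (SD, n = 3; log2 change -0.71, adjusted p = 2.52e-13). Gins2, a subunit of the active helicase, rose from 58.3 ± 2.19 to 68.7 ± 1.7 CPM (log2 change 0.24, adjusted p = 2.95e-05). Mcm10, which acts at the same step, rose, whereas this list moved both ways. Scaled by library size, 4 of the list rose and 7 fell.

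Of 28 replication fork genes, 18 rose and 5 fell (median log2 change 0.16). The polymerase delta subunits marked both ends, with a log2 change of 0.36 for Pold3 (adjusted p = 1.42e-08) and of -0.97 for Pold4 (adjusted p = 0.000287), the latter at 2.77 ± 0.33 and 1.41 ± 0.15 CPM. Among 6 genes of nucleotide supply 5 rose and 1 fell, with 0.25 for Dut and -0.32 for Tk1. Of 8 E2F genes 5 rose and 1 fell, with 0.34 for E2f7 and -0.52 for E2f2. Of 15 genes listed for G2/M, the phases after S phase, 8 rose and 1 fell (median 0.08), with 0.18 for Nusap1 and -0.21 for Ccnb2. Scaled by library size alone, 5 of the G2/M list rose and 3 fell (median 0.02). With TMM, small rises were therefore also counted in genes listed for G2/M, and no test compared them with the licensing genes. Over these 8 lists 69 of 93 tested genes changed, beside 62.8% of all tested genes. Of these, 54 rose and 15 fell, and 40 rose and 24 fell when scaled by library size alone. Of all changed genes 49.2% rose with TMM and 39.9% with library size scaling.

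**Figure D5:**
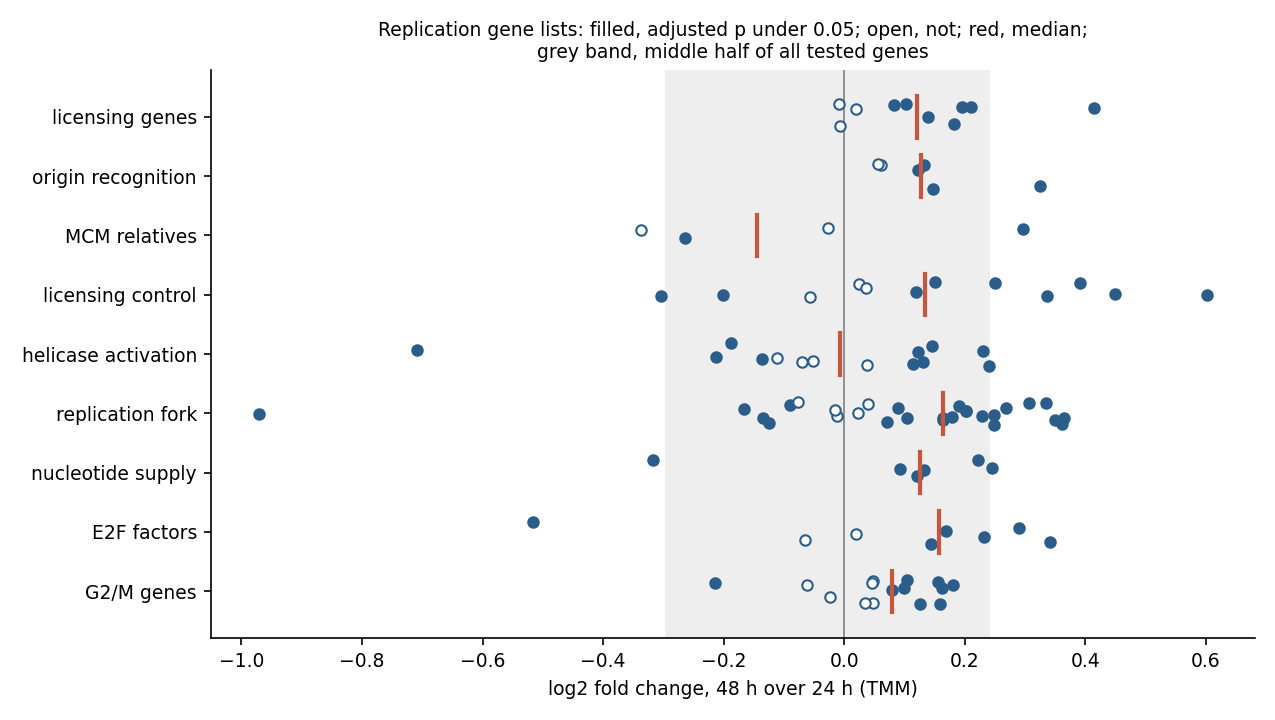
Log2 change, 48 h over 24 h (x axis, TMM scaling), of the tested genes of the licensing group and of 8 other lists. Filled points passed an adjusted p under 0.05, open points did not, red lines are list medians, and the grey band spans the middle 50% of all tested genes. The licensing genes lie between -0.01 and 0.41, and outside that range Ticrr, Pold4 and E2f2 lie furthest to the left and Ccne1 to the right.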

How the data were processed

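Messenger RNA of 6 libraries was sequenced (KAPA mRNA HyperPrep, per the labels' protocols). The authors deposited estimated counts per gene, not scaled for depth or length. The submitters' processing notes list cutadapt 1.9.1, STAR 2.5.2, RSEM 1.3.0 and GRCm38, and the annotation and use of strand are not given in the sources used here. RSEM divides reads between similar genes. Of the 10 members only Cdc6 had a fractional count, in 1 library. Gene symbols came from GENCODE M21 and matched 51633 of 51912 identifiers.

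Counts were rounded, filtered with filterByExpr (minimum count 10), scaled by TMM and compared with the quasi-likelihood test of edgeR 4.0.16 in R 4.3.3, on time point alone. The standard error is the log2 change divided by the square root of F. The test was tested on simulated data, with a pass limit that was changed after a first run missed it. Alternatives used other scalings, filters, DESeq2 1.42.0, limma voom 3.58.1, unrounded counts, a replicate block, a threshold of 0.01, and each library left out. All members are named, all 6 origin recognition genes, and in each other list the changed genes with the largest rise and fall and any gene not tested. The members and lists were chosen with earlier results of these data known.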

Additional observations from a re-analysis of the deposited data

How the results depend on the processing

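The count of 7 changed licensing genes held in every alternative run. The 7 were other genes only with library size scaling, where Mcm3 and Mcm5 were called in place of Mcm4 and Mcm6. Under library size scaling the median log2 change of the licensing genes was 0.061 in place of 0.12, and that of Gmnn was -0.041 (adjusted p = 0.3). Of 150 values of single licensing genes, 143 stayed as they were in sign and call, while 2 were no longer called, 2 became called and 3 changed sign. Without 1 library, Mcm3 ranged from -0.022 to 0.00097 and Mcm5 from -0.015 to 0.0022, the positive values being those that lacked 24 h replicate 1 for Mcm3 and 48 h replicate 3 for Mcm5, at adjusted p of 0.972 and 0.92. Leaving out 1 library gave 8737 to 8904 changed genes in all, 66 to 70 in the other 8 lists, and a licensing median of 0.11 to 0.14. Under the replicate block 9235 genes passed, 7 of them licensing genes with a median of 0.12. Same-numbered libraries had deviations correlated at -0.05, -0.04 and -0.01, and 0 of 6 libraries correlated best with their own number, so no pairing was found. The comparison of gene lengths was chosen after seeing the data.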
